A study of Bos taurus with 18 samples.

Results

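The genes described here encode proteins of the cytosolic ribosome. They were taken as all probe sets with a single platform symbol of the form RPL or RPS followed by a digit, or RPLP0, RPLP1, RPLP2 or RPSA. RPS6K kinases and paralogs with symbols ending in L or L1 were left out, and each symbol was represented by its brightest probe set. The rule found 44 probe sets among 24333, which gave 39 genes among 18010 genes with a single symbol. Of these, 22 encode subunits of the large and 16 of the small ribosomal subunit. The remaining symbol, RPS19BP1, matched the rule by name, but its product is a binding partner of RPS19 and a regulator of the deacetylase SIRT1, not a subunit. The values come from liver biopsies of 18 multiparous Holstein cows, taken 1 week after calving and with each cow on its own Affymetrix Bovine Gene 1.0 ST array. The 9 niacin cows ate total mixed rations of corn and grass silage with rumen-protected niacin (NiaShure) added at 79 mg/kg of body weight, beginning 3 weeks ahead of expected calving. Per the labels, this equalled 47 mg/kg at the duodenum and an estimated 31 mg/kg available for uptake. The 9 control cows ate these rations with no niacin added. All values are log2 levels of a probe set after RMA, a background correction, quantile normalization and summary.

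Ribosomal proteins assemble with ribosomal RNA in fixed proportions into a small subunit, which decodes mRNA, and a large subunit, which joins amino acids. Their mRNAs carry a terminal oligopyrimidine start through which mTORC1 controls their translation, so their mRNA level is only one layer of ribosome supply. In liver they serve the output of plasma proteins as well as the growth of the hepatocyte itself. Many processed copies of these genes lie in mammalian genomes, and an array probe may also bind transcripts of such copies. In a biopsy, fewer cells of a type and less RNA per cell cannot be told apart.

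Hepatocyte markers were bright in every cow: 15 of 15 averaged between 12.18 and 12.37 per niacin cow and between 12.25 and 12.42 per control cow on a scale with a highest value of 14.04. Array medians lay between 5.57 and 5.72, and arrays correlated at 0.972 to 0.990 over all probe sets. Probe sets of the 39 genes had a median level of 9.96, above 97.4% of all probe sets. Their levels ran from 3.08 for RPS23 to 11.77 for RPS2, which is brightness of the probe sets and gives no order of abundance between genes. RPS23 lay under the level of 4.35 below which probe sets were not tested, so 38 genes were tested. RPS14 (4.82), RPL38 (6.08), RPS4Y1 (6.24) and RPL36 (6.35) were the dimmest of these, and RPL37A (11.12), RPL18 (11.16), RPL23 (11.56) and RPS2 the brightest.

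The 39 genes tended to be high or low together in the same cow, and the cows at both ends of this shared range were controls. The mean over the 39 genes lay between 8.99 and 9.14 in niacin cows, with a median of 9.08, and between 8.87 and 9.26 in control cows, with a median of 9.16. All 9 niacin cows thus fell inside the control range and below the control median of this mean. With the median over the 39 genes in its place, 5 of the 9 lay below the control median. By the mean, cows 12, 20 and 16 were highest among controls and cows 23 and 11 lowest. The group means were 9.08 ± 0.04 in niacin and 9.11 ± 0.14 in control cows (SD, n = 9 each), a difference of -0.03 that was smaller than the spread between control cows. It was -0.06 without control 23 and -0.01 without control 12, so single controls moved its size by over 1.5 times.

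**Figure D1:**
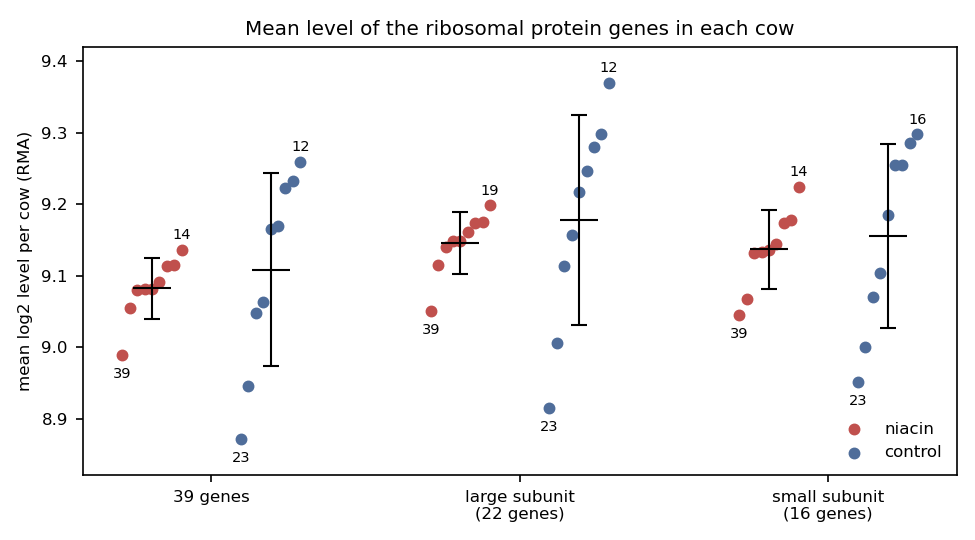
Mean log2 level in each cow (points, 9 per group) over all 39 genes and over the 22 large and 16 small subunit genes, niacin left of control, with bars for the mean and SD and numbers for the lowest and highest cow. Niacin cows spanned 8.99 to 9.14 over the 39 genes, inside the 8.87 to 9.26 of control cows.

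Control 23 was below the 18-cow median in 39 of 39 genes and was the lowest of all cows in 14 of them. Over all 18250 tested probe sets the same cow was lowest in 7.37%. Control 11 was below the median in 32 genes and lowest in 9, against 3.24% of all probe sets. Control 12 was above the median in 34 genes and highest in 16, against 5.88% of all probe sets. Control 20 was above the median in 37 genes and highest in 5, against 3.72% of all probe sets. Control 16 was above it in 31 genes and highest in 1, against 2.55%. Counts in niacin cows were less extreme. Niacin 39, the lowest of its group, was below the median in 29 genes and lowest in 5, against 8.43% of all probe sets. This cow was highest in 0 of the 39 genes, against 11.2% of all probe sets. Niacin 14, the highest of its group, was above the median in 24 genes. Shares over all probe sets were not taken for counts above or below the median.

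No cell type marker passed an adjusted p of 0.05 in the limma fit, but several lists had shifted values by group or in single cows. Macrophage markers averaged 8.40 to 9.25 in niacin and 8.33 to 8.85 in control cows, with 11 of 12 above 0 in niacin minus control and a median of 0.26. Of these 12, 4 were higher where the limma p was under 0.05 before adjustment. Of the 15 hepatocyte markers, 11 were below 0, with a median of -0.02, and 4 were lower at that p. T and NK cell markers averaged 5.49 to 5.77 in niacin and 5.32 to 5.68 in control cows. Of the 15 tested, 12 were above 0 and 3 were higher at that p. At that p 3.34% of all tested probe sets were higher and 4.41% lower. Stellate cell and fibroblast markers (9 measured) averaged 6.28 to 7.06 in niacin cows and 6.06 to 7.79 in control cows, and control 12 held the 7.79. Leukocyte markers (47 measured, of which 2 were under the level tested) averaged 6.30 to 6.65 in niacin cows and 6.13 to 6.44 in control cows, with control 23 at 6.22, control 12 at 6.44 and control 11 at 6.39. Control 23 held the lowest macrophage mean, 8.33, and the lowest T and NK cell mean, 5.32, of all cows. Neutrophil markers averaged 5.68 to 6.69 in niacin and 5.43 to 5.91 in control cows. Of the 9 tested, 8 were above 0, with a median of 0.20, and 2 were higher at an unadjusted limma p under 0.05. B and plasma cell markers averaged 5.31 to 5.54 in niacin and 5.18 to 5.63 in control cows. Of the 9 tested, 4 were above 0 and 1 was higher at that p. Endothelial markers averaged 7.80 to 8.19 in niacin and 7.71 to 8.18 in control cows. Bile duct markers averaged 4.91 to 6.12 in niacin and 5.35 to 5.69 in control cows. Red cell markers averaged 4.53 to 6.07 in niacin and 4.51 to 5.01 in control cows, with the 6.07 in niacin 8, whose ribosomal protein mean was 9.08. Without the part that follows the leukocyte markers, the coherence described next was 0.376 in place of 0.369, and without the part that follows stellate cell and fibroblast markers it was 0.345. Beyond this, the part of other cells in the pattern was not tested.

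**Figure D2:**
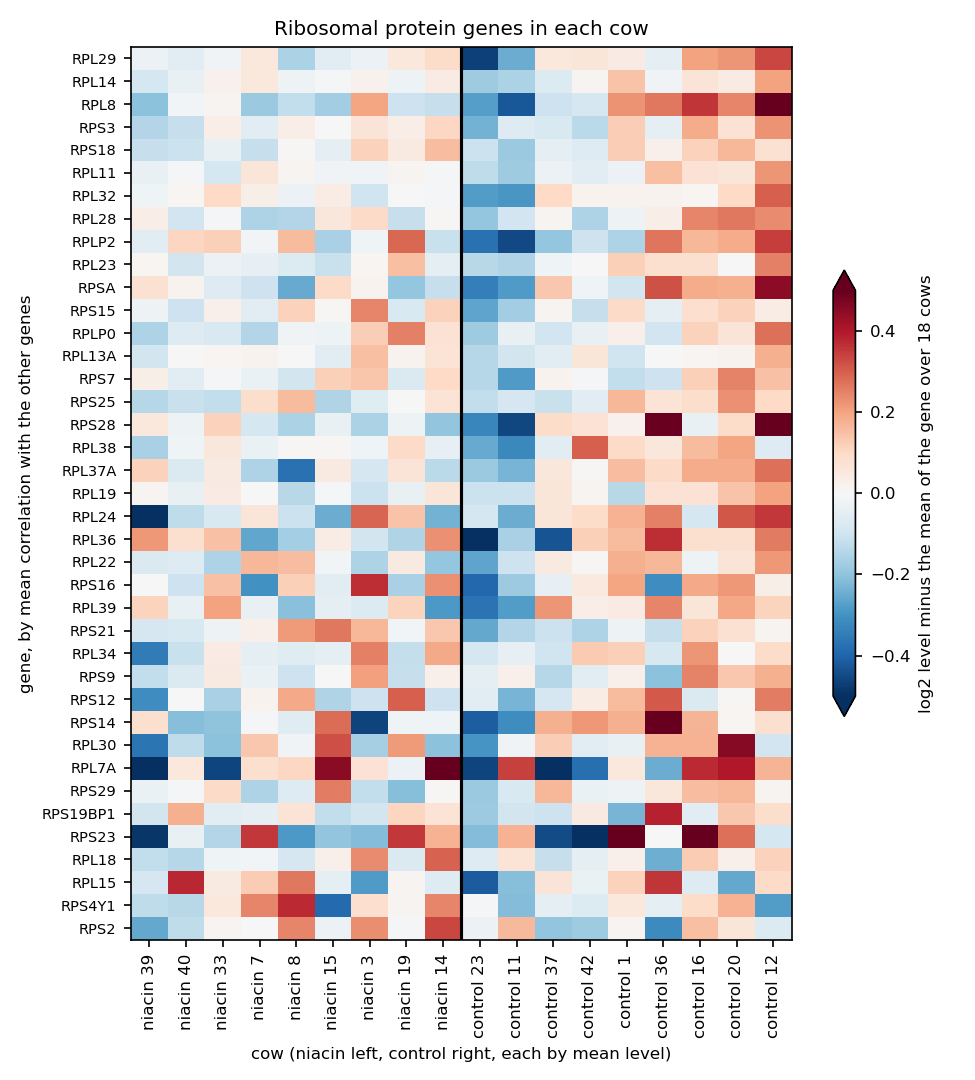
Log2 level of each of the 39 genes in each cow minus the mean of the gene over 18 cows (colour, limits at 0.5 to either side), niacin cows left and control cows right of the line, each ordered by their mean. Control 23 and control 11 are low, and control 16, 20 and 12 high, down most of the rows, and among niacin cows niacin 39 is below the median in 29 genes.

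Pairs of ribosomal protein genes had a median Pearson correlation of 0.369 over the 18 cows. The 741 pairs share cows and arrays, so this is a description with no test. Over all pairs of the 18250 tested probe sets the median was -0.001, and over pairs of probe sets at a level of at least 8 it was 0.047. A correlation over 0.5 was found in 31.8% of ribosomal protein pairs, in 4.69% of all pairs and in 8.67% of pairs at a level of at least 8. The first principal component held 39.0% of the standardised variance. The median was 0.456 within the large subunit, 0.325 within the small subunit and 0.346 between them. Among the 29 genes at a level of at least 8 the median was 0.470. Some other gene lists had higher medians than the 39 genes over the same 18 cows. They were nascent chain genes (0.541), proteasome genes (0.526) and tRNA synthetase genes (0.410). Mitochondrial ribosomal proteins (0.309), initiation factors (0.295) and assembly factors (0.235) had lower medians. The lowest were elongation genes (0.068), mTORC1 genes (0.018), RNA polymerase I genes (0.013) and paralogs left out by the rule (-0.127).

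Genes at the core of this pattern came from both subunits. RPL29, a small basic protein of the large subunit, had a mean correlation of 0.514 with the other 38 genes. RPL14 followed at 0.506, RPL8, which sits by the peptidyl transferase centre, at 0.503, and RPS3, which lines the mRNA entry channel, at 0.495. In RPL29 the lowest, median and highest niacin cows were at 8.84, 8.97 and 9.09, against 8.53, 9.05 and 9.33 in control cows. The control cows at its ends were again 23 and 12, and all niacin cows lay between them. RPL14 ran from 10.92 over a median of 11.00 to 11.06 in niacin cows and from 10.83 over 11.02 to 11.21 in control cows. The tightest pairs were RPS16 with RPS15 (0.855), RPSA with RPS28 (0.849) and RPL32 with RPL29 (0.842), each within a subunit, and the tightest between subunits was RPS28 with RPL32 (0.821).

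A few genes stood outside it. RPS2, near the mRNA entry site of the small subunit and the brightest probe set, had a mean correlation of 0.055 with the other genes, and correlated at -0.594 with RPS28 and at -0.592 with RPL39. RPS4Y1, whose human namesake lies on the Y chromosome but which was measured here in cows, was at 0.072. RPL15 (0.143) and RPL18 (0.179), both of the large subunit, came next. The non-subunit RPS19BP1 was at 0.216, and RPS23 at 0.205 although its probe set was below the level tested. In RPS2 niacin cows ran from 11.51 to 12.10, and control cows from 11.45 in control 36 to 11.93 in control 11, a cow that was low in most of the other genes. Leaving RPS19BP1 out changed the median over all pairs to 0.374.

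**Figure D3:**
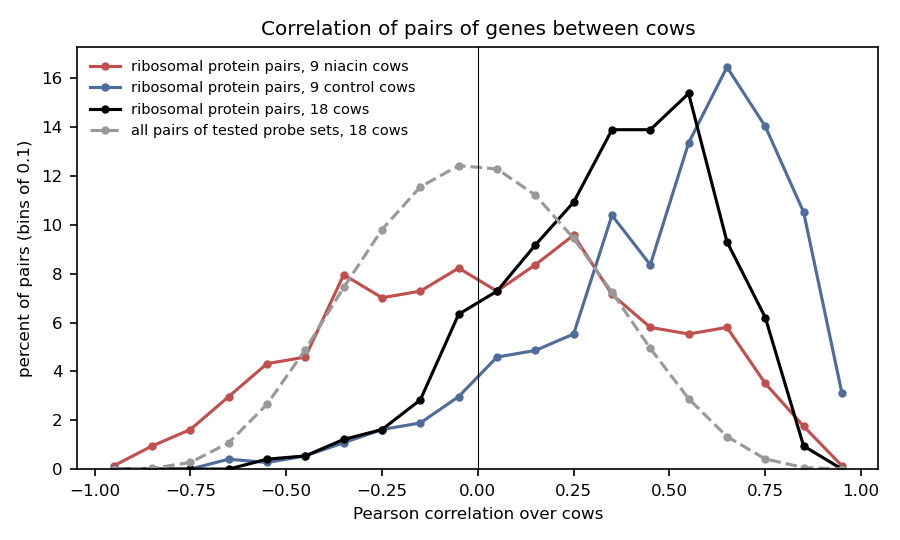
Share of gene pairs (percent, in bins of 0.1) by Pearson correlation over cows, for pairs of the 39 genes over 9 niacin, 9 control and all 18 cows, and for all pairs of tested probe sets. Pairs in control cows centre on 0.551, pairs in niacin cows on 0.061, and pairs of all probe sets on -0.001.

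The shared movement was strong in control cows and weak in niacin cows. Within the niacin group the median correlation of the 741 pairs was 0.061, and within the control group it was 0.551. A correlation over 0.5 was seen in 16.7% of pairs in niacin cows and 57.5% in control cows, against 12.3% of all pairs of probe sets in niacin cows and 10.9% in control cows. Leaving out 1 cow of the group gave 0.021 to 0.088 in niacin cows and 0.437 to 0.605 in control cows, lowest without niacin 39 and without control 23. Without controls 11 and 23 the control value was 0.306, and without controls 11, 12 and 23 it was 0.253. These cows were picked after seeing the data because they stood at the ends of the shared range, a choice that can lower a correlation by itself. The ends of the niacin group were not left out together in the same way. The difference between the groups was not tested.

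Several other gene lists of protein synthesis and turnover had the higher value in niacin cows. Translation initiation factors (38 tested) had a median pairwise correlation of 0.388 in niacin cows and 0.195 in control cows. Cytosolic aminoacyl-tRNA synthetases and their scaffold proteins (19 tested), which charge tRNAs, were at 0.575 in niacin and 0.271 in control cows. Proteasome subunits (30 tested) were at 0.660 in niacin and 0.411 in control cows, and mitochondrial ribosomal proteins (74 tested) at 0.396 in niacin and 0.276 in control cows. Translation elongation factors and partners (10 tested) were at 0.006 in niacin and 0.204 in control cows. Nascent chain chaperones and targeting factors (17 tested) were at 0.673 in niacin and 0.401 in control cows, and ribosome assembly factors (83 tested) at 0.294 in niacin and 0.205 in control cows. RNA polymerase I genes were at 0.089 in niacin and 0.014 in control cows, and mTORC1 signalling genes at 0.028 in niacin and 0.002 in control cows. Single cows moved some of these values by over 1.5 times. Without control 12 the proteasome value in control cows was 0.147. Without niacin 19 the mitochondrial ribosomal proteins were at 0.261 in niacin cows, and without niacin 14 the assembly factors were at 0.192. The elongation value in niacin cows ran from -0.095 without niacin 39 to 0.094 without niacin 8. The RNA polymerase I genes ran from 0.023 to 0.099 in niacin and from -0.022 to 0.032 in control cows on leaving out 1 cow, and the mTORC1 genes from 0.015 to 0.038 in niacin and from -0.017 to 0.027 in control cows. None of these differences was tested.

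Most ribosomal protein genes also varied less among niacin than among control cows. Of the 38 tested genes, 28 (73.7%) had a smaller SD in niacin than in control cows, against 40.9% of all tested probe sets. Among the 29 genes at a level of at least 8 it was 23 (79.3%), against 34.6% of all probe sets at that level. The median ratio of the SD in niacin to that in control cows was 0.726, and over all probe sets it was 1.09. In 22 of the 39 genes all niacin cows lay strictly inside the control range, against 16.0% of all tested probe sets. The reverse, control cows inside the niacin range, held in 3 genes, against 26.8% of all probe sets. In the other lists the smaller SD was in niacin cows for 5 of 38 initiation factors, 3 of 30 proteasome genes, 0 of 17 nascent chain genes, 3 of 19 tRNA synthetase genes and 1 of 5 paralogs. It was so for 30 of 74 mitochondrial ribosomal proteins (40.5%), 14 of 36 mTORC1 genes (38.9%), 7 of 19 RNA polymerase I genes (36.8%), 30 of 83 assembly factors (36.1%), 3 of 10 elongation genes and 1 (RACK1) of the 2 subunit genes with other names. These differences in spread were not tested.

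RPS28, which sits by the mRNA exit of the small subunit, is an example. Its lowest, median and highest niacin cows were at 10.21, 10.37 and 10.52, against 9.95, 10.48 and 10.97 in control cows. The SD was 0.10 in niacin and 0.33 in control cows, and controls 11 and 12 were the ends of the control range. RPL11, which forms the ribonucleoprotein of the smallest ribosomal RNA together with RPL5, had an SD of 0.04 in niacin and 0.13 in control cows. RPL32, of the large subunit, had the lowest ratio of the 39, with 0.05 in niacin and 0.185 in control cows. The stalk protein RPLP2, which helps to recruit elongation factors, had 0.14 in niacin and 0.29 in control cows, whereas its partner RPLP0 had 0.13 in both groups. RPS4Y1 (0.23 in niacin and 0.14 in control cows) and RPL34 (0.18 in niacin and 0.12 in control cows) went the other way. Without control 23 the smaller SD was in niacin cows for 23 of 38 genes (60.5%, against 39.6% of all probe sets). Controls 11, 12 and 23 stood at the ends of the shared range and were picked for this after seeing the data. Without all of them the smaller SD was in niacin cows for 18 of 38 (47.4%, against 38.3%). Leaving out such cows can lower the control SD by itself.

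**Figure D4:**
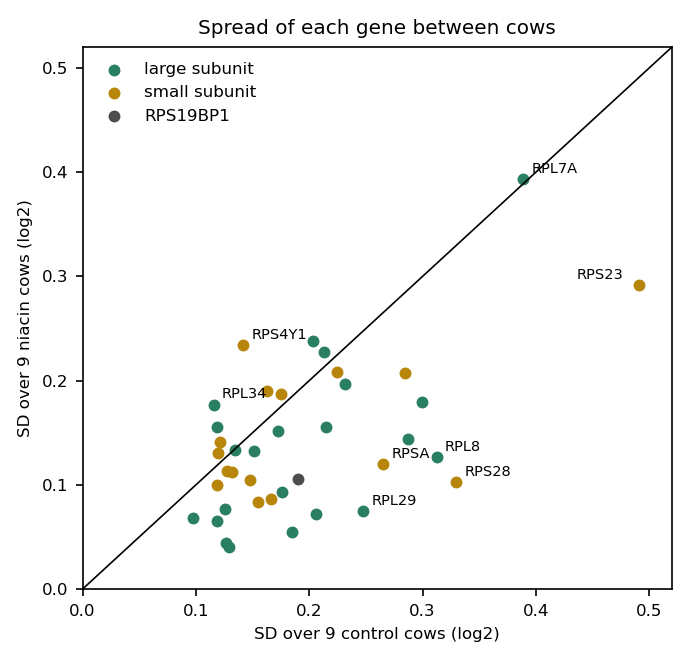
SD of each of the 39 genes over 9 niacin cows (vertical axis) against that over 9 control cows (horizontal axis), on the log2 scale, coloured by subunit, with the line of equal SD. Most points lie below the line, RPS28 (0.10 in niacin, 0.33 in control cows) among them, and RPS4Y1 and RPL34 lie above it.

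Probe sets that the platform assigns to a ribosomal protein together with other symbols were not chosen by the rule. There were 45, with 44 distinct value profiles, all above the level tested. Several profiles belong to the same gene, RPL23A among them, so the 44 are not separate genes. Of the 44, 41 correlated above 0 with the mean of the 39 genes and 24 (54.5%) above 0.5, with a median of 0.543, against 1.46% of all tested probe sets above 0.5. Their median pairwise correlation was 0.138 in niacin and 0.442 in control cows, and 28 (63.6%) had the smaller SD in niacin cows. Their mean lay between 9.39 and 9.54 in niacin cows and between 9.41 and 9.64 in control cows. Control 12 was again the highest and control 23 the lowest of the controls. The lowest of all cows was a niacin cow, so niacin cows did not all lie inside the control range. These probe sets may share target transcripts with the 39 genes and come from the same arrays. They show the shared movement on other probe sets and not in other animals.

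No ribosomal protein gene passed the test of niacin against control. Of the 38 tested genes, 0 passed an adjusted p of 0.05 in the limma fit over all 18250 probe sets, as did 0% of all probe sets. At an unadjusted limma p under 0.05 there were also 0 ribosomal protein genes, where 7.74% of all probe sets were found (3.34% higher and 4.41% lower). By the exact permutation test 1 gene had an unadjusted p under 0.05, against 7.53% of all probe sets. The log2 differences, niacin minus control, ran from -0.18 to 0.13 with a median of -0.02, and 24 of 38 were below 0. Over all probe sets the median was 0.01 and 46.2% were below 0. The 95% intervals of all 38 genes included 0 and lay between -0.39 and 0.42, with a median half-width of 0.16. The number of arrays limits this precision. The groups overlapped in all 39 genes, as they did in all 18250 tested probe sets (0 not overlapping).

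**Figure D5:**
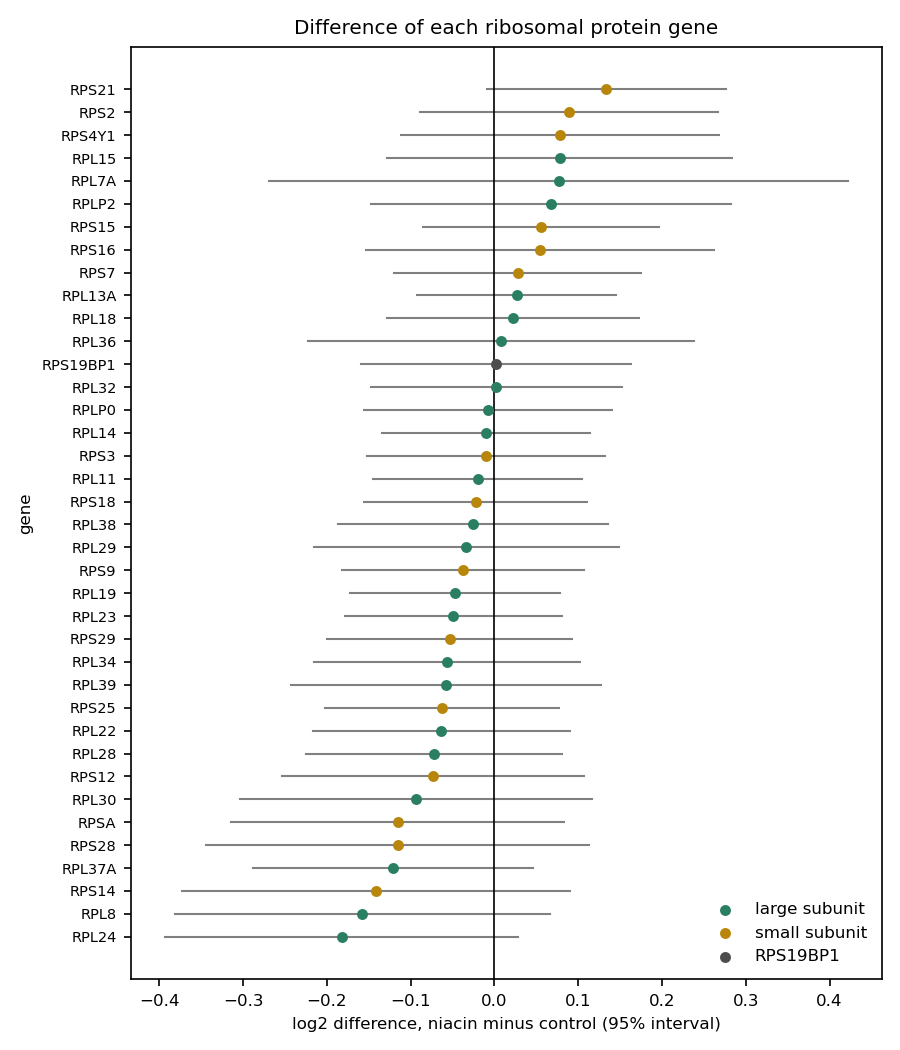
Log2 difference of each of the 38 tested genes, niacin minus control, with its 95% limma interval, ordered by size and coloured by subunit. All intervals include 0, with RPS21 (0.13) at the top and RPL24 (-0.18) at the bottom.

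Of the small subunit genes among the 38 tested, RPS21 had the smallest p. It was at 8.12, 8.23 and 8.47 in the lowest, median and highest niacin cow, against 7.95, 8.10 and 8.32 in control cows. All 9 niacin cows lay above the control median, though the ranges overlapped. The difference was 0.13 ± 0.07 (SE), or 1.10-fold, with an exact permutation p of 0.0414 and a limma adjusted p of 0.664. RPS2 differed by 0.09 (limma adjusted p = 0.850) and RPS4Y1 by 0.08 (0.882 by the same test). RPSA, also known as the laminin receptor precursor, was at 10.08, 10.27 and 10.43 in niacin cows and 9.99, 10.47 and 10.78 in control cows. All 9 niacin cows lay below its control median, and the difference was -0.12 ± 0.10 (SE; limma adjusted p = 0.817). RPS14, of which 1 copy is lost in the human del(5q) syndrome, differed by -0.14 and RPS28 by -0.12, with limma adjusted p of 0.804 and 0.846.

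Of the large subunit genes among the 38 tested, RPL24, a late-joining protein at the interface of the subunits, had the largest difference. It was at 6.05, 6.46 and 6.86 in the lowest, median and highest niacin cow and at 6.32, 6.66 and 6.92 in control cows. The difference was -0.18 ± 0.10 (SE), or 0.881-fold, with an exact permutation p of 0.101 and a limma adjusted p of 0.697. RPL8 was at 8.63, 8.72 and 9.03 in niacin cows, against 8.41, 9.06 and 9.34 in control cows. All 9 niacin cows lay below the control median, yet inside the control range, and the difference was -0.16 ± 0.11 (SE; limma adjusted p = 0.768). RPL37A differed by -0.12 (limma adjusted p = 0.758), RPL15 by 0.08 and RPL7A by 0.08 (0.890 and 0.948 by the same test). RPL7A was also the most variable of the 38, with an SD of 0.39 in both groups. The remaining genes fixed by name were closer to 0, with RPLP2 at 0.07, RPL13A, which takes part in translational silencing after interferon gamma in human cells, at 0.03, RPL11 at -0.02 and RPLP0 at -0.01. RPL36, RPL38, RPL18, RPL23, RPL14, RPL29 and RPS3 lay between -0.05 and 0.02. The other 16 tested genes lay between -0.09 (RPL30) and 0.06 (RPS15). In the large subunit RPL19 differed by -0.05, RPL22 by -0.06, RPL28 by -0.07, RPL34 by -0.06, RPL39 by -0.06 and RPL32 by 0.00. In RPL19, a bridge to the small subunit, 8 of 9 niacin cows lay below the control median. In the small subunit RPS16 differed by 0.05, RPS7 by 0.03, RPS18 by -0.02, RPS9 by -0.04, RPS29 by -0.05, RPS25 by -0.06 and RPS12 by -0.07, and RPS19BP1 differed by 0.00. RPS18, a protein of the small subunit head, had a mean correlation of 0.467 with the other genes and ran from 10.81 to 11.08 in niacin cows and from 10.74 to 11.09 in control cows. RPS23, not tested, was at 2.59 to 3.43 in niacin cows and 2.38 to 3.91 in control cows. For RPLP1, RPS6, RPL3, RPL5, RPS19, RPL41 and RPS27A no probe set with that symbol alone was used here.

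Where a gene had several probe sets under its symbol alone, they gave the same direction. For RPL36, a probe set shared with another symbol was at -0.03, against 0.01 for the one used. RPL39, whose product lines the exit tunnel, had 5, of which 4 held identical values, and the other correlated with them at 0.752, at -0.12 in place of -0.06. The probe sets of RPS28 correlated at 0.904 and differed by -0.12 and -0.13. Of the 44 profiles with several symbols, 36 (81.8%) were below 0, against 46.2% of all tested probe sets, with a median difference of -0.05. An unadjusted limma p under 0.05 was found in 2 of the 44, against 7.74% of all probe sets. These were a profile of RPL7 with other symbols, at -0.39, and a profile of RPS27 with other symbols, at -0.24. Their limma adjusted p were 0.476 and 0.558, and both differences were larger in size than any among the 38 tested genes. The other RPL7 profile was at -0.02.

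Genes around the ribosome were read from lists by role, and none passed an adjusted p of 0.05. The subunit genes with other names, FAU and RACK1, differed by 0.10 and 0.00 (limma adjusted p of 0.865 and 0.998). Of 83 ribosome assembly factors, 2 were higher and 3 lower at an unadjusted limma p under 0.05, with a median difference of -0.02. WDR43, a component of the small subunit processome, was at -0.27 and TMA16 at -0.23. Of 19 genes of RNA polymerase I transcription, 0 were higher and 3 lower, among them TAF1B (-0.27) and TAF1D (-0.32), subunits of the factor that selects ribosomal RNA promoters. Of 36 genes of mTORC1 signalling and oligopyrimidine regulation, 2 were higher and 3 lower, with LAMTOR1, an anchor of mTORC1 on the lysosome, at 0.16 and its inhibitor TSC1 at -0.20. These counts stand against 7.74% of all probe sets (3.34% higher and 4.41% lower). Of 38 initiation factors, 0 passed that threshold in either direction, and EIF4G2 was at 0.13 and EIF3E at -0.12. Of 10 elongation genes 0 did, with EEF1E1 at 0.17 and EEF1D at -0.15.

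The counts that follow are also at an unadjusted limma p under 0.05, where 3.34% of all probe sets were higher and 4.41% lower. Of 19 cytosolic tRNA synthetase genes, 1 was lower, QARS1 at -0.25, and AIMP1 was at -0.17. Of 17 genes of nascent chain folding and targeting, 1 was higher, the chaperone gene HSPA8 at 0.24, and HSPA14 was at 0.18. Of 74 mitochondrial ribosomal proteins 1 was higher, MRPS7 at 0.19, and MRPL34 was at 0.14. Of 30 proteasome genes 2 were higher, PSMD14 (0.35) and PSMD3 (0.18), with a median of 0.05 for the list. Of 5 paralogs left out by the rule 0 passed that threshold, with RPL22L1 at -0.13 and RPL26L1 at -0.09, and their pairs had a median correlation of -0.127. Over all these lists the smallest limma adjusted p was 0.474.

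Outside the family, the single-symbol genes most like the mean of the 39 genes were sought by Pearson correlation over the 18 cows after removal of the group means. They were LOC507784 (0.790), LOC521901 (0.782), ARHGEF3 (0.782), PPP5C (0.778), IFT52 (0.751), CEP128 (0.746), SDF2 (0.732), LOC619156 (0.710), VPS37C (0.704) and RCAN3 (0.697). LOC507784 and LOC619156 also stand beside a ribosomal protein symbol in the annotation of other probe sets. The most negative were CHL1 (-0.830), DCP1B (-0.742), WIPF2 (-0.742), LOC100196901 (-0.713) and TRIM56 (-0.710). DCP1B is a cofactor of mRNA decapping. Without controls 12 and 23 the 10 positive values lay between 0.431 and 0.766 and the 5 negative ones between -0.710 and -0.532. With the group means left in, the positive values over the 18 cows ran from 0.442 (RCAN3) to 0.791 (LOC507784), with VPS37C at 0.530. The negative ones then ran from -0.767 to -0.557. The genes named are the extremes of all tested genes and were given no test.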

How the data were processed

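The values used were deposited log2 levels per probe set, made with Affymetrix Expression Console and RMA, per the submitters' processing notes; versions are not given in the sources used here, and the log2 scale was taken from the values (0.85 to 14.04). Quantile normalization in RMA equalises the arrays, which would hide a change shared by most transcripts. Per the labels' protocols, 22 cows were studied, and of 11 RNA samples per group the 2 with the lowest integrity were left out. Groups came from sample titles; no batch is given. The members and lists were chosen with earlier results of these data known.

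The dimmest 6083 probe sets (share 0.25, mean under 4.35) were left out. The remaining 18250 were fitted in R 4.3.3 with limma 3.58.1 (lmFit, eBayes, no covariate), two-sided, adjusted by Benjamini-Hochberg, and tested on simulated data. In these data, with each probe set drawn independently, an adjusted p under 0.05 recovered 6 of 67 changes of 1.2-fold and 53 of 67 of 1.5-fold. The 38 ribosomal protein genes ran from 0.881-fold to 1.10-fold, so the fit had little power at their size. Exact permutation p-values, two-sided, used all 48620 splits into 9 and 9 (Python 3.11.15). All 39 gene IDs matched RefSeq (ARS-UCD2.0), with 0 symbols changed. Correlations, SDs and shares are descriptions. Named genes followed a rule on smallest p, largest difference, highest and lowest correlation and level, and a list of names. The other ribosomal protein genes and the tightest pairs were named after their values were seen. Alternatives were other filters, variance models, array weights, normalizations, a leukocyte covariate, other thresholds and summaries, and leaving out each array.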

Additional observations from a re-analysis of the deposited data

Results flagged for a closer look

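Of 80 groups of 9 values (39 genes and their mean, in niacin and in control cows), 1 held a cow far from the rest. RPL23, a large subunit gene, was at 11.71 in niacin 19, and the gap to the next cow was 0.538 of the range of the niacin group, above the 95% critical value for 9 values. Chance gives about 1 in 20 such groups. The controls at the ends of the shared range, 12 and 23, were not set apart by this measure in any of the 39 genes.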

How the results depend on the processing

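No paired analysis was possible because the groups share no cow number. The count of probe sets past an adjusted p of 0.05 stayed at 0 under each alternative except on leaving out 1 array, where it ran from 0 to 1 (without niacin 39); the limma fit held 1413 at an unadjusted p under 0.05. The count of ribosomal protein genes at an unadjusted p under 0.05 was 0, and became 1 with a second quantile normalization (RPS21), 1 with the exact permutation test, 2 at a threshold of 0.10, and 0 to 2 on leaving out 1 array, with RPL24 and RPL8 without control 11. The difference of the mean level ran from -0.056 to -0.0071 on leaving out 1 array. The median pairwise correlation of 0.369 ran from 0.284 (without control 23) to 0.393, and was 0.061 in niacin cows alone, 0.551 in control cows alone and 0.263 without controls 12 and 23, an alternative chosen after seeing the data. The share of the first principal component was 30.4% in niacin cows alone, 54.7% in control cows alone and 28.8% without controls 12 and 23, and 33.1% to 41.0% on leaving out 1 array. The count of genes with the smaller SD in niacin cows, itself chosen after seeing the data, ran from 23 to 33 on leaving out 1 array and was 23 with arrays centred on their median. Of 44 named log2 differences, 0 passed an adjusted p of 0.05 under any alternative, and 13 changed sign under at least 1, all of them at most 0.08 in size. With the leukocyte covariate RPL13A was at -0.0146, RPLP2 at -0.0202, RPS4Y1 at -0.0143 and RACK1 at -0.0347. RPL14 was at 0.00770 with array weights and 0.00651 with a second quantile normalization. RACK1 was at -0.0134 with array weights, -0.00333 with centred arrays, -0.0147 with a second quantile normalization and -0.0111 without controls 12 and 23, where RPL36 was at -0.0259 and RPLP0 at 0.00508. On leaving out 1 array the difference ran from -0.0435 to 0.00653 in RPL11, -0.0328 to 0.0147 in RPL14, -0.0135 to 0.0415 in RPL18, -0.0939 to 0.00611 in RPL29, -0.0544 to 0.0543 in RPL36, -0.0675 to 0.01 in RPL38, -0.0025 to 0.156 in RPL7A, -0.04 to 0.0260 in RPLP0, -0.0401 to 0.0174 in RPS3 and -0.0328 to 0.0389 in RACK1. The cause was not tested.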
